A study of Homo sapiens with 36 samples.

Results

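The transcriptional response to oxaliplatin (OXPT) was examined in HCT-116 cells without FBXW7 that carried a control esiRNA. It rests on 6 of the 36 RNA-seq libraries of the series, chosen by their titles: 3 labelled FBXW7KO siCT OXPT and 3 labelled FBXW7KO siCT UNT. HCT-116 is a human colorectal carcinoma line, and FBXW7 encodes the substrate receptor of an SCF ubiquitin ligase, an enzyme complex that marks proteins for the proteasome. All 6 libraries are from FBXW7-/- cells (KO), a Cas9-derived line obtained commercially, transfected for 48 h with esiCT, an esiRNA pool without a target of interest. In the OXPT group 50 µM oxaliplatin was present for the last 24 h, and the untreated group had none. Beside these, KO cells with esiHDAC4 or with the class IIa HDAC degrader #11, and WT cells whose label entries give different esiRNAs, each had 3 untreated and 3 OXPT libraries. The comparison asks which genes change in FBXW7-deficient cells with a control esiRNA when they meet the drug.

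Oxaliplatin is a platinum compound that cross-links DNA. DNA lesions activate the kinases ATM and ATR, which stabilise p53, and p53 switches on genes for cell cycle arrest, apoptosis and repair. Among its targets CDKN1A encodes p21, an inhibitor of cyclin-dependent kinases, through which the DREAM complex lowers the transcription of genes needed for G2 and mitosis.

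Polyadenylated RNA was counted per gene, and the 6 libraries held between 10725966 and 19582737 counts on genes. OXPT replicate 3 had the fewest counts, 22.3% of its reads unmapped against 8.46% to 9.74% in the other 5, and 22868 genes with a count against 25895 to 26950. Its composition differed as well. In the fifth of genes with the shortest exons (up to 2.82 kb), the median gene was 0.69 higher on the log2 scale than the mean of OXPT replicates 1 and 2, and in the fifth with the longest exons (9.02 kb and over) it was 0.49 lower. In the untreated group the same comparison of replicate 3 ran from 0.13 to -0.13, and replicate 2 over replicate 1 stayed between -0.05 and 0.11 in both groups. Short and long transcripts thus stood on opposite sides of the other libraries in that one. Where computed, results that rest on it are given with and without it. The epithelial markers EPCAM, KRT8, KRT18, KRT19, CDH1 and CLDN4 were present in every library, with a summed level of 5540 to 8679 CPM (counts scaled to the TMM-adjusted library size) untreated and 9639 to 22048 CPM with OXPT. The 12 markers of other cell types summed to 31.0 to 46.4 CPM untreated and 40.5 to 86.3 CPM with OXPT, most of it COL1A1, while CD3E, COL1A2 and DCN were at 0 counts in all 6. FBXW7 itself was counted at 16.9 ± 1.34 CPM (SD, n = 3) in untreated KO esiCT cells and 21.1 ± 3.6001 CPM in untreated WT cells, but reads summed over the full gene are blind to the edit and leave the genotype unchecked. The counts carry no strand, and 28 of the 107 genes named by the rule overlap another tested gene in the annotation. Part of their reads may be left out as ambiguous or belong to the neighbour. Among the 28 are KCNQ1, FAS, MDM2, POLH, MDC1, MCM7, FANCC, ZRANB3, MAX, ATOX1, SREBF1, COL18A1, KRT8 and KRT18.

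Of 12356 genes tested, 1398 were called, which is 11.3%. Called means a Benjamini-Hochberg adjusted p under 0.05 in edgeR's quasi-likelihood test and a change of more than 1.5-fold. There were 770 called higher with OXPT (6.23%) and 628 called lower (5.08%), and the median over all tested genes was 0.01 on the log2 scale. Changes over 4-fold were found in 138 of the higher and 99 of the lower genes. Genes called higher held 3.51% of the counts of tested genes in untreated cells and 7.73% with OXPT, and genes called lower went from 5.26% to 2.14%. Without OXPT replicate 3 the test called 1002 genes, 492 higher and 510 lower, so the excess of higher calls was not present without that library. Without untreated replicate 1 it called 779 (355 and 424), without untreated replicate 2 it called 855 (390 and 465), and without both libraries numbered 3 it called 711 (374 and 337). Of the 1398 calls, 61.9% were also called without OXPT replicate 3, and none of the 15 alternative analyses called one of them in the opposite direction.

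Targets of p53 that act in arrest and feedback had the largest share of calls of the 35 gene lists. Of 21 tested, 15 rose, 0 fell and 6 were not called, with a median log2 fold change of 1.93 against 0.01 over all genes. CDKN1A stood at 319.8, 303 and 390.4 CPM in the untreated libraries and 2879, 2542 and 3752 CPM with OXPT (log2 fold change 3.18 ± 0.38, adjusted p = 1.65e-05, edgeR). MDM2, the ubiquitin ligase that degrades p53, had 69.1, 65.7 and 43.997 CPM in the untreated libraries and 421, 468 and 177 CPM with OXPT. Its groups did not overlap, which was also so for 30.1% of all genes tested in either direction, and replicate 3 was the lowest in both (log2 fold change 2.58 ± 0.51, adjusted p = 0.00192). PHLDA3, an inhibitor of AKT signalling, rose from 41.3, 37.5 and 43.3 CPM to 204, 238 and 346 CPM. GDF15, a secreted stress cytokine, had 202, 113 and 327 CPM in the untreated libraries and 999.6, 754 and 2192 CPM with OXPT (log2 fold change 2.62 ± 0.75, adjusted p = 0.0262). BTG2, PPM1D, SESN1, TP53INP1 and the 14-3-3 gene SFN were also called higher, with log2 fold changes of 2.58, 2.04, 2.39, 2.25 and 2.32. The 6 that were not called included GADD45A (1.45, adjusted p = 0.0647), SESN2 (1.63, 0.0751) and CCNG1 (0.49, 0.376). Without OXPT replicate 3 the group had 14 called higher and a median of 1.98. The call of GDF15 was lost without OXPT replicate 3, untreated replicate 1 or untreated replicate 2, with adjusted p from 0.0295 to 0.121 over the 6 leave-one-out fits.

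Among p53 targets of the death pathways, 10 of 16 tested rose and 0 fell (median 1.56). TP53I3, an oxidoreductase linked to p53-dependent apoptosis, had the steepest rise, with 20.6, 12.97 and 25.3 CPM in the untreated libraries and 444, 324 and 547 CPM with OXPT (log2 fold change 4.48 ± 0.54, adjusted p = 1.52e-05). The genes of the mitochondrial arm, BBC3 and BAX, encode a BH3-only activator and a pore-forming effector. BBC3 had 23.5, 19.2 and 38.1 CPM in the untreated libraries and 114, 114 and 116 CPM with OXPT (log2 fold change 2.09 ± 0.41, adjusted p = 0.00208). BAX had 99.4, 95.7 and 144 CPM in the untreated libraries and 287, 370.4 and 674 CPM with OXPT (log2 fold change 1.97 ± 0.34, adjusted p = 6.61e-04). BAK1, the other effector, rose by log2 1.04, a call that was lost without OXPT replicate 3 or untreated replicate 1, 2 or 3 (adjusted p 0.0417 to 0.129). Of the receptors, FAS had 9.97, 6.76 and 6.200 CPM in the untreated libraries and 64.6, 54.3 and 31.5 CPM with OXPT (log2 fold change 2.71 ± 0.39, adjusted p = 1.10e-04). TNFRSF10A, a TRAIL receptor, had 24.8, 33.6 and 26.1 CPM in the untreated libraries and 76.3, 85.4 and 84.3 CPM with OXPT, and it rose by log2 1.54. The groups of both receptors were apart. TNFRSF10B, the other death-inducing TRAIL receptor, had 84.3, 85.6 and 105 CPM in the untreated libraries and 257, 196 and 139 CPM with OXPT, with the groups apart and an adjusted p of 0.0481 (log2 1.11). That call passed by little and held only without OXPT replicate 3 among the leave-one-out fits (adjusted p 0.0374 to 0.164). The decoy receptor TNFRSF10C rose from 1.98, 1.49 and 2.31 CPM to 11.97, 11.6 and 10.6 CPM. CFLAR, which blocks caspase-8, rose by log2 1.13, and was not called without OXPT replicate 2 (adjusted p = 0.0535). PMAIP1, another BH3-only gene, had 32.6, 38.6 and 32.2 CPM in the untreated libraries and 84.4, 72.4 and 84.04 CPM with OXPT, which do not overlap. It did not pass in the main fit (log2 1.22, adjusted p = 0.0536) or in any leave-one-out fit, and passed with the replicate block (adjusted p = 0.0235). The survival gene MCL1 had 122, 131 and 151 CPM in the untreated libraries and 177, 148 and 192 CPM with OXPT (log2 0.35, adjusted p = 0.294). Across the BCL2 family 3 of 15 tested rose and 0 fell, which was 20% called higher against 6.23% of all genes tested. With the replicate block 6 rose, and 2 rose without OXPT replicate 3, without any 1 untreated library or without both libraries numbered 3. The median was 0.52, and 0.28 without OXPT replicate 3. Across death receptors and caspases 5 of 19 rose (26.3%) and 0 fell, and 3 rose without OXPT replicate 1 or 2 or untreated replicate 2 or 3.

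The p53 targets in repair and metabolism had 9 of 17 tested called higher, 0 lower and a median of 1.26. FDXR, the reductase that feeds electrons to mitochondrial P450 enzymes, had 131, 98.5 and 162 CPM in the untreated libraries and 610.3, 594 and 735 CPM with OXPT (log2 fold change 2.31 ± 0.24, adjusted p = 5.56e-06). POLH, the translesion polymerase that can read past platinum adducts, had 24.04, 19.9 and 28.7 CPM in the untreated libraries and 96.3, 85.2 and 113 CPM with OXPT (log2 fold change 2.02 ± 0.19, adjusted p = 2.06e-06). DDB2, which finds damage for nucleotide excision repair, had 47.3, 38.9 and 64.9 CPM in the untreated libraries and 164, 156 and 269 CPM with OXPT (log2 fold change 1.96 ± 0.28, adjusted p = 8.28e-05). SUSD6 rose by log2 2.05, from 9.83, 8.75 and 11.02 CPM to 44.4, 38.3 and 40.1 CPM. POLH overlaps GTPBP2 and POLH-AS1 in the annotation. Reads that fit more than 1 gene were left out as ambiguous, and without strand the origin of the others cannot be checked. Without OXPT replicate 3 this group had 11 called higher. The lists of p53 targets are drawn from textbook knowledge of such genes in many cell types, and the plot of levels by library shows how far apart the 2 groups stood for the genes described here.

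**Figure D1:**
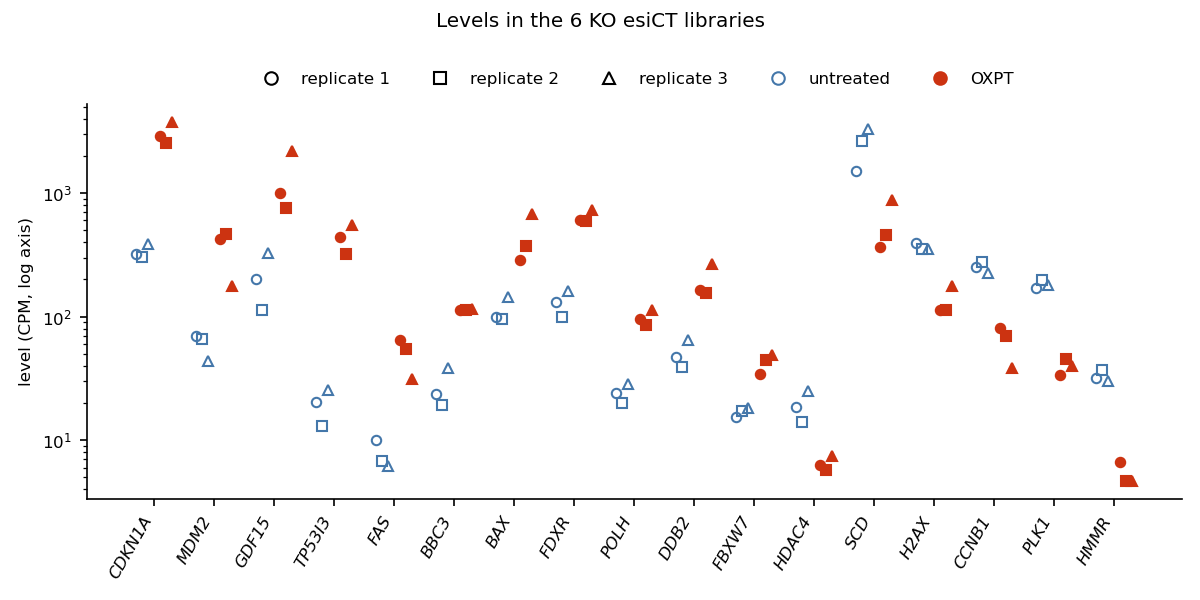
Levels in CPM on a log axis (y) of 17 genes (x) in the 3 untreated libraries (open blue) and the 3 OXPT libraries (filled red), with the symbol giving the replicate number. The groups do not overlap for these genes, nor for 30.1% of all genes tested. OXPT replicate 3 (triangle) is the lowest OXPT value for MDM2, FAS, CCNB1 and HMMR, lies between the other OXPT values for PLK1 and is the highest for the other 12 genes.

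Of 17 genes for damage kinases, their adaptors and the regulators of p53, 0 rose and 2 fell (4 with the replicate block), and 16 had a log2 fold change below 0 (median -0.28). The 2 calls were 11.8% of the list, against 11.3% of all genes tested. Without OXPT replicate 3, 10 of the 17 were below 0 with a median of -0.08, without untreated replicate 2 they were 11 with a median of -0.05, and in both fits 1 gene was called lower. H2AX, the histone variant phosphorylated at breaks, had 394, 356 and 353 CPM in the untreated libraries and 113, 114 and 175 CPM with OXPT (log2 fold change -1.46 ± 0.24, adjusted p = 5.66e-04). MDC1, the adaptor that binds it, fell by 0.72 on the log2 scale, and this call was lost without OXPT replicate 3, untreated replicate 2 or untreated replicate 3 (adjusted p 0.0136 to 0.0915). ATM (-0.01), ATR (-0.12) and CHEK2 (-0.14) were not called.

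Of the 35 lists, genes of G2 and mitosis had the most members called lower. Of 38 tested, 16 fell, 0 rose and 22 were not called, and all 38 had a log2 fold change below 0, with a median of -1.41. The lower calls were 42.1% of the list, against 5.08% of all genes tested. PLK1, the kinase that drives mitotic entry, had 170.1, 198 and 182 CPM in the untreated libraries and 33.7, 45.6 and 39.5 CPM with OXPT (log2 fold change -2.21 ± 0.26, adjusted p = 1.28e-05). CCNB1, which encodes cyclin B1, had 252, 278 and 225 CPM in the untreated libraries and 80.3, 70.3 and 38.6 CPM with OXPT (log2 fold change -1.996 ± 0.23, adjusted p = 1.22e-05). HMMR, a spindle-associated protein, had 31.8, 37.3 and 29.9 CPM in the untreated libraries and 6.67, 4.697 and 4.64 CPM with OXPT (log2 fold change -2.62 ± 0.44, adjusted p = 5.74e-04). In all 3 genes the groups were apart in every replicate. MKI67, the proliferation marker, did not pass. It had 259, 362 and 89.2 CPM in the untreated libraries and 127, 265 and 12.98 CPM with OXPT, with the number 3 library lowest in each group (log2 -0.81 ± 0.89, adjusted p = 0.612). The exons of MKI67 sum to 12845 bases, which puts it in the fifth of longest exons, and the part of this in its level was not tested. Without OXPT replicate 3 the group had 15 called lower, and without both libraries numbered 3 it had 11. With the replicate number as a block it had 26.

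The promoters of these genes are shown because the group moved together and because a pair of short motifs is typical of it. The CCAAT box is read by the factor NF-Y, and the cell cycle homology region (CHR, TTTGAA) by the DREAM complex and by B-MYB with FOXM1. Below are the promoters of the 5 called members with the lowest log2 fold changes that the table of RefSeq promoters lists (GRCh38.p14, 250 bases before to 50 after the start), CENPA and CCNB2 being chosen after their values were seen. CCAAT and TTTGAA on either strand are in capitals.
HMMR, chr5:163460382-163460681, plus strand: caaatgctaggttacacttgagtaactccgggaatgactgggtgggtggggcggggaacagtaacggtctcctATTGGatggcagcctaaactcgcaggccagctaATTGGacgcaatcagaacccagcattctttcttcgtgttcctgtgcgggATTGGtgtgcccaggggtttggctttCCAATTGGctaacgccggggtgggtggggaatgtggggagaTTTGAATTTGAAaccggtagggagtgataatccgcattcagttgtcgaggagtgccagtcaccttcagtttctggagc
PLK1, chr16:23678639-23678938, plus strand: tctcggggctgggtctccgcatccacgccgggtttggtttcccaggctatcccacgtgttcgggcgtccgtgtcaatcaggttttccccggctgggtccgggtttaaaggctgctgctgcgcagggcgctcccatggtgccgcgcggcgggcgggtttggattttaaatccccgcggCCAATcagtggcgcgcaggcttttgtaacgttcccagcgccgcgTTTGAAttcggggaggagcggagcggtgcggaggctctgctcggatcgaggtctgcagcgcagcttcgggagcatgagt
CCNB1, chr5:69166900-69167199, plus strand: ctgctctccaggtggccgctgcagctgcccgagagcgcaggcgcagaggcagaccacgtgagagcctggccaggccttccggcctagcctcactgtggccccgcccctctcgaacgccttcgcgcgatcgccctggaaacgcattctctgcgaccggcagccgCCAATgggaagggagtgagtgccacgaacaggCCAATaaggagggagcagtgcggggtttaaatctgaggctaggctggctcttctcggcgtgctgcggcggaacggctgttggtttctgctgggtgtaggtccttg
CENPA, chr2:26785806-26786105, plus strand: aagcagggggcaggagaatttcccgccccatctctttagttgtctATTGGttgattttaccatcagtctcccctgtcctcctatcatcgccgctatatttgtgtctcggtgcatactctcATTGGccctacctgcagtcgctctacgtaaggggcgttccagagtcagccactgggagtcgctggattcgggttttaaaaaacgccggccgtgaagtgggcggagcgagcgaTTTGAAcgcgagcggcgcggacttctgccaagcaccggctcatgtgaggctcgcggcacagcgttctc
CCNB2, chr15:59104896-59105195, plus strand: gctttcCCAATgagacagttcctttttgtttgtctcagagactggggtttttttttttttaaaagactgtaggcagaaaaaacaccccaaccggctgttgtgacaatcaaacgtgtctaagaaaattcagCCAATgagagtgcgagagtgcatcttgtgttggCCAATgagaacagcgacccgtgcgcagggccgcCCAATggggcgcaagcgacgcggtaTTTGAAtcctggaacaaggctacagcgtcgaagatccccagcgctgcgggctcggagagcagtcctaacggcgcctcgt
HMMR holds 5 CCAAT boxes, of which a pair overlaps, and 2 adjoining CHR motifs, PLK1 holds 1 of each, CENPA 2 and 1, CCNB2 4 and 1, and CCNB1 holds 2 CCAAT boxes without TTTGAA in this window. In HMMR, PLK1, CENPA and CCNB2 the CHR begins 28, 29, 18 and 29 bases before the annotated start. Over the 32 promoters of the list that the table holds, 59.4% had TTTGAA and 78.1% had CCAAT on either strand. Over the 9475 tested genes with an entry, these shares were 8.94% and 36.7%, and over all 27305 promoters listed they were 15.4% and 35.7%. Among all genes called lower 15.3% of 484 promoters held TTTGAA, and among genes called higher 8.14% of 553. The list was written from knowledge of the cell cycle, in which these motifs were described, so the shares describe the list and are not a test of the response.

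Genes of DNA replication shared this direction. Of 40 tested, 37 had a log2 fold change below 0, and the median was -0.63. Of these 40, 9 fell (22.5%, against 5.08% of all genes tested) and 1 rose. The exception was PCNA, the sliding clamp of the replication fork and also a p53 target, with 292, 299 and 245 CPM in the untreated libraries and 628, 484 and 689 CPM with OXPT (log2 fold change 1.11 ± 0.18, adjusted p = 4.93e-04). Of the MCM helicase, MCM7 had 608, 664 and 569 CPM in the untreated libraries and 263, 352 and 295 CPM with OXPT (log2 -1.02 ± 0.28) and MCM5 had 218, 253 and 172 CPM in the untreated libraries and 90.4, 122 and 52.5 CPM with OXPT (log2 -1.28 ± 0.37). Both calls were lost without OXPT replicate 1, OXPT replicate 3, untreated replicate 1 or untreated replicate 2, with adjusted p up to 0.0765 for MCM7 and 0.132 for MCM5. DUT, which removes dUTP, fell from 88.9, 87.8 and 84.3 CPM to 33.6, 31.7 and 50.6 CPM (log2 fold change -1.17 ± 0.25, adjusted p = 0.00401) and was called in all 6 leave-one-out fits. The count of replication genes called lower was 5 without OXPT replicate 1, 3 without OXPT replicate 2 or 3, 2 without untreated replicate 1, 1 without untreated replicate 2 and 2 without both libraries numbered 3. The median without OXPT replicate 3 was -0.55, and without both libraries numbered 3 it was -0.69. Of 22 G1/S genes under E2F, 0 rose and 2 fell (4 with the replicate block). The 2 were 9.09% of the list, against 11.3% called among all genes tested. These were MYBL2 (log2 -0.98) and E2F2 (log2 -0.97), and E2F2 was not called in any leave-one-out fit (adjusted p 0.0517 to 0.115). MYBL2 was not called without OXPT replicate 1 or 3 or untreated replicate 1 or 2 (adjusted p 0.0213 to 0.0843). CCNE1, the cyclin that FBXW7 degrades, had 68.4, 85.8 and 43.1 CPM in the untreated libraries and 59.99, 76.2 and 49.8 CPM with OXPT (log2 -0.08, adjusted p = 0.848). In bulk RNA, fewer cells in a cell cycle phase and less of a transcript per cell cannot be told apart.

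Of 38 genes of homologous recombination and the Fanconi pathway, 1 rose and 3 fell (8 fell with the replicate block), and these 4 were 10.5% of the list against 11.3% called among all genes tested. RAD51B, a gene of homologous recombination, fell from 3.55, 4.22 and 3.89 CPM to 0.343, 0.795 and 0.357 CPM (log2 fold change -2.94 ± 0.34, adjusted p = 1.15e-05). FANCC fell by 0.71 on the log2 scale (adjusted p = 0.00975), and it spans more than 200 kb, as RAD51B does. EME1 (log2 -0.78) was not called without OXPT replicate 3, untreated replicate 1 or untreated replicate 3 (adjusted p 0.0114 to 0.116), and its log2 fold change was 0.16 with counts of the reverse strand. RAD51C, which rose by log2 0.71, was called only without OXPT replicate 2 among the leave-one-out fits (adjusted p 0.0442 to 0.142). ERCC1, a subunit of the nuclease that excises platinum adducts, had 86.7, 108 and 109 CPM in the untreated libraries and 136, 165 and 266 CPM with OXPT. It did not pass in the main fit (log2 0.90, adjusted p = 0.088) or in any leave-one-out fit, and passed with the replicate block (adjusted p = 0.0225). Of 23 genes of excision and mismatch repair DDB2 alone was called (4 with the replicate block). Of 15 translesion genes POLH and PCNA rose and ZRANB3 fell (log2 -1.64, lost without OXPT replicate 2 or 3 or untreated replicate 1 or 2, adjusted p 0.0215 to 0.0966). Of 13 genes that transport or bind platinum and copper, only ATOX1, a copper chaperone, was called. It had 33.7, 37.4 and 34.4 CPM in the untreated libraries and 64.6, 80.5 and 169 CPM with OXPT, where OXPT replicate 3 was the highest, and without that library its adjusted p was 0.0544. SLC31A1, the copper importer, had 54.4, 53.6 and 50.9 CPM in the untreated libraries and 43.7, 33.7 and 40.8 CPM with OXPT (log2 -0.43, adjusted p = 0.0649). Calls made up 4.35% of the excision and mismatch repair list, 20% of the translesion list and 7.69% of the transport list.

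Lipid synthesis formed a further group of lower genes. All 29 genes of cholesterol and fatty acid synthesis tested had a log2 fold change below 0, 7 were called lower and the median was -0.98. The 7 were 24.1% of the list, against 5.08% called lower among all genes tested. SCD, the desaturase that makes monounsaturated fatty acids, had 1502, 2624 and 3286 CPM in the untreated libraries and 365, 458 and 877 CPM with OXPT (log2 fold change -2.13 ± 0.56, adjusted p = 0.0168). LSS, which closes the sterol ring, had 88.8, 118 and 147 CPM in the untreated libraries and 36.8, 43.9 and 46.2 CPM with OXPT (log2 fold change -1.48 ± 0.37, adjusted p = 0.0115). FDFT1, squalene synthase, had 335, 525 and 379 CPM in the untreated libraries and 142, 178 and 191 CPM with OXPT (log2 fold change -1.28 ± 0.40, adjusted p = 0.0422). SREBF1, whose product drives fatty acid genes, fell by 0.90 on the log2 scale, and SREBF2 and FASN were also called lower. Untreated replicate 1 had the lowest level of SCD, LSS and FDFT1 among the untreated libraries, and the groups stayed apart for each of them. SCD was not called without OXPT replicate 1, OXPT replicate 2 or untreated replicate 3 (adjusted p up to 0.0635), LSS not without untreated replicate 3 (0.0514), and FDFT1 in none of the leave-one-out fits. The list had 5 calls without OXPT replicate 3, 2 without OXPT replicate 1 or 2, 4 without untreated replicate 1, 3 without untreated replicate 2, 1 without untreated replicate 3 and 2 without both libraries numbered 3. With the replicate block it had 11. Its median lay between -0.97 and -1.13 when each library was left out in turn, with all 29 genes below 0 each time.

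Genes induced early by growth and stress signals had 4 of 25 called higher, 0 lower and a median of 0.83, which was 0.47 without OXPT replicate 3. The 4 were 16% of the list, against 6.23% called higher among all genes tested. CCN2 and CCN1, secreted matricellular proteins, rose most. CCN2 had 1.02, 2.98 and 2.51 CPM in the untreated libraries and 18.2, 18.4 and 21.9 CPM with OXPT (log2 fold change 3.16 ± 0.48, adjusted p = 1.84e-04). CCN1 had 10.4, 13.8 and 9.63 CPM in the untreated libraries and 57.1, 156 and 53.9 CPM with OXPT (log2 fold change 2.98 ± 0.53, adjusted p = 8.30e-04). ATF3, a stress-induced transcription factor that is also counted among ATF4 targets, had 16.05, 19.5 and 19.5 CPM in the untreated libraries and 82.99, 113 and 80.7 CPM with OXPT (log2 fold change 2.33 ± 0.63, adjusted p = 0.0192), and its call was lost without OXPT replicate 2 or untreated replicate 1, 2 or 3 (adjusted p 0.0283 to 0.0886). JUN, an AP-1 subunit and FBXW7 substrate, had 33.9, 46.6 and 33.4 CPM in the untreated libraries and 69.3, 175 and 65.7 CPM with OXPT. These do not overlap, and replicate 2 was the highest in both groups. JUN did not pass in the main fit (log2 1.44, adjusted p = 0.102) or in any leave-one-out fit. It passed with the replicate block (adjusted p = 0.0434). With the block 9 genes of the list were called higher, and without OXPT replicate 2, untreated replicate 1 or untreated replicate 2 there were 2. Of 17 genes of ERK feedback, EPHA2 (log2 1.57) and the phosphatase DUSP5 (1.45) rose and SPRY4 fell (-1.299). These 3 were 17.6% of the list, against 11.3% called among all genes tested. EPHA2 was lost without untreated replicate 1 (adjusted p = 0.0824) and DUSP5 in each leave-one-out fit but that without OXPT replicate 1 (adjusted p 0.0455 to 0.138). Of 22 ATF4 targets, ATF3 rose and PHGDH, the entry enzyme of serine synthesis, fell from 249, 282 and 168 CPM to 113, 62.7 and 91.9 CPM (log2 fold change -1.38 ± 0.33, adjusted p = 0.00832). These 2 were 9.09% of the list, against 11.3% called among all genes tested. Of 19 NRF2 targets AKR1B10 alone was called, and of 15 NF-κB targets TNFAIP2 alone, 2 with the replicate block (log2 0.70, lost without OXPT replicate 2 or untreated replicate 1 or 2, adjusted p 0.016 to 0.0895). ISG15, a ubiquitin-like protein, was the 1 gene called of 13 interferon-stimulated genes (2 with the replicate block or without OXPT replicate 3), with 91.9, 83.3 and 114 CPM in the untreated libraries and 296, 369.5 and 936 CPM with OXPT (log2 fold change 2.47 ± 0.51, adjusted p = 0.00278). Of 14 chaperones HSPA5, the main chaperone of the endoplasmic reticulum, fell (log2 -1.33), but not without OXPT replicate 3 (adjusted p = 0.0906) or untreated replicate 2. With the replicate block 2 chaperones were called lower. Of 7 genes of intestinal epithelial identity CEACAM1 alone was called. Single calls made up 5.26% of the NRF2 list, 6.67% of the NF-κB list and 7.69% of the interferon list. They were 7.14% of the chaperones and 14.3% of the intestinal list, against 11.3% called among all genes tested.

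In the matrix and signalling lists both directions occurred. Of 18 genes of basement membrane and matrix, 3 rose and 1 fell, which was 22.2% of the list against 11.3% called among all genes tested. LAMA3 and LAMB3 encode chains of laminin-332. LAMA3 had 5.67, 8.19 and 6.46 CPM in the untreated libraries and 69.3, 50.5 and 11.8 CPM with OXPT, with replicate 3 well below the other OXPT libraries (log2 fold change 2.698 ± 0.61, adjusted p = 0.00617). LAMB3 had 30.5, 47.7 and 45.98 CPM in the untreated libraries and 179.6, 273 and 162 CPM with OXPT (log2 2.31 ± 0.66), and its call was lost without OXPT replicate 2 or untreated replicate 1, 2 or 3 (adjusted p 0.0361 to 0.124). COL18A1 fell by 2.80 on the log2 scale. Of 18 Wnt and Notch genes 3 rose and 1 fell, also 22.2% of the list. DKK1, a secreted Wnt inhibitor, had 109, 152 and 72.4 CPM in the untreated libraries and 584, 452 and 611 CPM with OXPT (log2 fold change 2.304 ± 0.29, adjusted p = 2.23e-05). HES2 and JAG2 rose by log2 2.33 and 0.84, and NOTUM fell by 1.09 on the log2 scale. JAG2 was not called without OXPT replicate 2 or 3 or untreated replicate 1 or 2 (adjusted p 0.0292 to 0.192). NOTUM was called in 1 leave-one-out fit, that without untreated replicate 2 (adjusted p 0.0187 to 0.159). Of the epithelial markers KRT18 and KRT8 were called higher, KRT18 with 827, 893 and 1129.6 CPM in the untreated libraries and 1686, 2019 and 5028 CPM with OXPT and KRT8 with 2471, 2876 and 3976 CPM in the untreated libraries and 4425, 5483 and 8859 CPM with OXPT. These keratin genes overlap in the annotation, both were highest in OXPT replicate 3, and without that library their adjusted p was 0.0958 and 0.225. Neither was called without untreated replicate 1 or 2, nor KRT8 without OXPT replicate 2. Of the markers of other cells ACTA2, a smooth muscle actin, was called higher, from 1.298, 1.18 and 2.57 CPM to 7.85, 7.88 and 2.62 CPM. It overlaps FAS in the annotation. Reads that fit both genes were left out as ambiguous, and without strand the origin of the others cannot be checked.

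FBXW7 transcripts, counted over the whole gene, rose. They stood at 15.4, 17.2 and 18.1 CPM in the untreated libraries and 34.04, 44.7 and 49.04 CPM with OXPT (log2 fold change 1.33 ± 0.31, adjusted p = 0.00747), and of the 15 alternative analyses only that without both libraries numbered 3 lost the call (adjusted p = 0.0656). Among 20 known FBXW7 substrates 0 rose and 4 fell: AURKA, HDAC4, SREBF1 and SREBF2. The 4 were 20% of the list, against 5.08% called lower among all genes tested. SREBF1 and SREBF2 were also among the lower lipid genes. With the replicate block 1 rose, and without both libraries numbered 3 only 2 fell. AURKA, a mitotic kinase, had 60.9, 79.9 and 70.1 CPM in the untreated libraries and 26.2, 20.6 and 17.02 CPM with OXPT (log2 fold change -1.72 ± 0.22, adjusted p = 2.67e-05). HDAC4 fell by 1.56 on the log2 scale, from 18.4, 14.02 and 24.9 CPM to 6.28, 5.71 and 7.499 CPM. It spans 353 kb, and 25.3% of all genes over 200 kb were called lower. Its log2 fold change was -1.48 in KO esiHDAC4, -0.50 in KO #11 and -1.29 in WT. MYC had 94.9, 139 and 103 CPM in the untreated libraries and 156, 146 and 111 CPM with OXPT (log2 0.30, adjusted p = 0.391). Of the other class IIa deacetylases, HDAC5 (log2 0.42, adjusted p = 0.183) and HDAC7 (0.08, 0.871) were not called, and HDAC9 was under the count minimum. NR4A2 (0.20, 0.744) and RNF43 (-0.20, 0.749) were not called either. Of 15 genes of the class IIa HDAC and MEF2 list HDAC4 alone passed (6.67%), and 1 further gene was called higher with the replicate block or without OXPT replicate 3. Of 17 MYC partners and targets MAX (log2 0.65) and MNT (0.89) were called higher. These 2 were 11.8% of the list, against 11.3% called among all genes tested. MAX was not called without OXPT replicate 2 or 3 or untreated replicate 1 or 2 (adjusted p 0.0233 to 0.174), nor MNT without OXPT replicate 2 or untreated replicate 1 or 2 (0.0214 to 0.126).

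The lists of ribosomal protein genes and of nuclear genes of oxidative phosphorylation moved with OXPT replicate 3. Of 78 ribosomal protein genes 67 had a log2 fold change above 0, with a median of 0.43. Without that library 18 did, with a median of -0.12. RPL3, the 1 member called, had 3769, 3460.0 and 4567 CPM in the untreated libraries and 1329, 1392 and 2305 CPM with OXPT (log2 fold change -1.23 ± 0.28, adjusted p = 0.00613), and was called lower in all 6 leave-one-out fits. Of 39 nuclear genes of oxidative phosphorylation, SDHA alone was called, and the median went from 0.35 to -0.04 without OXPT replicate 3. SDHA (adjusted p = 0.457 without that library), the mitochondrial gene MT-ND3 (0.258), the glucose transporter SLC2A3 (0.311) and the RNA polymerase I subunits POLR1H (0.264) and POLR1C (0.187) all lost their calls in this way. SDHA, MT-ND3 and POLR1H were also not called without any 1 of the untreated libraries, SLC2A3 not without untreated replicate 1 or 2, and POLR1C not without OXPT replicate 2 or any 1 of the untreated libraries. MT-ND3, SLC2A3 and the POLR1H and POLR1C pair were the only called members of the lists of 15 mitochondrial genes, 22 glycolysis genes and 48 genes of ribosome biogenesis. Across these lists and the ribosomal protein and oxidative phosphorylation lists, 1.28% to 6.67% of members were called, against 11.3% of all genes tested. The ribosome biogenesis list had a median of 0.26, and of 0.33 without OXPT replicate 3, so its median did not depend on that library. Without OXPT replicate 1, where replicate 3 has more weight, 5 ribosomal protein genes, 8 oxidative phosphorylation genes and 4 genes of ribosome biogenesis were called higher. With the replicate block 4 genes of ribosome biogenesis and 2 mitochondrial genes were. Of 5 replication histones tested, edgeR's quasi-likelihood test called 0, with 1 at an unadjusted p under 0.05, 1 called with the replicate block, 1 without OXPT replicate 1 and 1 by DESeq2.

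The 12 highest called protein-coding genes, under the rule given with the methods, were mostly genes with almost no reads in untreated cells. PDE6G, a subunit of the photoreceptor phosphodiesterase, had 0, 4 and 3 counts in the untreated libraries and 76, 115 and 71 with OXPT (log2 5.41 ± 0.71). The hair keratin-associated genes KRTAP3-1 (log2 5.198) and KRTAP2-3 (3.605) were among them, KRTAP2-3 losing its call without OXPT replicate 2, untreated replicate 1 or untreated replicate 3 (adjusted p 0.00761 to 0.0769). SYT8, a synaptotagmin, had 0.751, 0.558 and 0.726 CPM in the untreated libraries and 12.4, 11.3 and 21.8 CPM with OXPT (log2 fold change 4.46 ± 0.43, adjusted p = 2.06e-06). AKR1B10, an aldo-keto reductase, had 0.956, 0.993 and 0.66 CPM in the untreated libraries and 21.1, 9.901 and 15.1 CPM with OXPT (log2 fold change 4.13 ± 0.48, adjusted p = 1.15e-05). ELAPOR1, a lysosome-associated regulator, rose from 0.751, 0.869 and 1.39 CPM to 14.8, 10.05 and 17.3 CPM. CEACAM1, an adhesion molecule, had 0.751, 0.124 and 0.594 CPM in the untreated libraries and 22.3, 9.68 and 2.98 CPM with OXPT, so its OXPT libraries differed several-fold among themselves. HMCN2 (log2 4.49), ATAD3C (3.78), KLHL30 (3.63), GZMM (3.58) and TP53I3 completed the 12. None spans more than 200 kb, the longest being 168 kb.

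Of the 12 lowest, 11 span more than 200 kb of the genome, and GNG7 spans 191 kb. KCNQ1, a voltage-gated potassium channel, had 10.9, 8.19 and 16.2 CPM in the untreated libraries and 0.196, 0.434 and 0.238 CPM with OXPT (log2 fold change -5.32 ± 0.45, adjusted p = 5.48e-07). It overlaps the antisense transcript KCNQ1OT1. FHIT, which lies at a common fragile site, had 8.06, 7.57 and 8.58 CPM in the untreated libraries and 0, 0.578 and 1.07 CPM with OXPT (log2 fold change -4.104 ± 0.73, adjusted p = 8.48e-04). PRDM16, a transcriptional regulator, had 6.898, 9.55 and 7.98 CPM in the untreated libraries and 0.392, 0.289 and 0.952 CPM with OXPT. LTBP1, which anchors latent TGF-β, had 9.56, 9.37 and 11.5 CPM in the untreated libraries and 0.687, 0.723 and 0.595 CPM with OXPT. BCAS3 had 23.6, 21.2 and 20.5 CPM in the untreated libraries and 1.67, 1.81 and 1.55 CPM with OXPT, with replicates close together in both groups (log2 fold change -3.69 ± 0.47, adjusted p = 3.00e-05). RPS6KA2, a kinase downstream of ERK, fell from 13.04, 9.43 and 16.1 CPM to 1.28, 0.867 and 1.31 CPM. TRAPPC9, a subunit of a vesicle tethering complex, had 26.9, 24.6 and 38.7 CPM in the untreated libraries and 2.55, 2.602 and 2.26 CPM with OXPT (log2 fold change -3.59 ± 0.25, adjusted p = 4.43e-08). FHOD3 (log2 -4.08), OTUD7A (-3.81), XYLT1 (-3.502), GNG7 (-3.42) and TLN2 (-3.15) were the others. All 12 were called in every leave-one-out fit.

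Of 782 tested genes spanning over 200 kb, 198 were called lower (25.3%) and 16 higher (2.05%), against 5.08% and 6.23% of all genes tested. From the shortest to the longest of 6 span classes, the share called lower was 2.88%, 2.93%, 2.83%, 4.42%, 7.28% and 25.3%, and the median log2 fold change went from 0.32 to -0.55. Without OXPT replicate 3 the medians of these end classes were -0.05 and -0.39. The median span was 92.6 kb for genes called lower, 18.8 kb for genes called higher and 30.7 kb for all tested. By replicate number, the median of genes over 200 kb was -0.49, -0.48 and -0.94 for pairs 1, 2 and 3, whereas the median of genes up to 5 kb was -0.07, 0.13 and 0.65. The difference between short and long genes was thus widest in pair 3, and genes over 200 kb had a median below 0 in all 3 pairs. Genes were tested where 1 of the 8 groups held 64 counts, so a gene could pass through the group where it was high. With at least 64 counts in every group 83 of 533 genes over 200 kb were called lower (15.6%, median -0.38), and with only the groups compared 99 of 719 (13.8%, median -0.54). Without both libraries numbered 3, 128 of 788 such genes were called lower (16.2%) and 11 higher, and the median was -0.49. The same held at a given exon length. In the third of genes with the shortest exons 18 of 48 over 200 kb were called lower (37.5%) against 3.44% of the others, and in the third with the longest exons 22.9% against 4.39%. Genes over 200 kb also had medians of -0.70 in WT, -0.63 in KO esiHDAC4 and -0.64 in KO #11.

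Among the 16 long genes called higher were LAMA3 (log2 2.698), FBXW7 (1.33), the neuronal sorting receptor SORCS2 (2.98), the long noncoding RNA PURPL (2.25) and the transcription factor RUNX1 (0.85). SORCS2, PURPL and RUNX1 were chosen after their values were seen. Long noncoding RNAs as a class had 85 of 606 tested called higher (14.03%) and 12 lower (1.98%), with a median of 0.35, against 5.92% and 5.33% of 11263 protein-coding genes. The class was not computed without OXPT replicate 3. Its medians were 0.27 in KO esiHDAC4, -0.04 in KO #11 and 0.05 in WT.

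The same contrast in the other arms shares no library with this one. With OXPT 6.44% of all genes tested were called higher and 5.54% lower in KO esiHDAC4, 5.1% and 5.6% in WT and 5.94% and 3.57% in KO #11. In KO esiHDAC4, 576 of the 770 higher genes (74.8%, and 72.4% of the 796 called there) and 498 of the 628 lower genes (79.3%, and 72.8% of 684) were also called. In WT these numbers were 426 (55.3%, and 67.6% of 630) and 439 (69.9%, and 63.4% of 692), and in KO #11 they were 381 (49.5%, and 51.9% of 734) and 231 (36.8%, and 52.4% of 441). CDKN1A had log2 fold changes of 3.18 in KO esiCT, 3.10 in KO esiHDAC4, 2.55 in KO #11 and 2.55 in WT. The p53 arrest list had medians of 1.93, 1.98, 1.47 and 1.66 in the same order, and G2 and mitosis -1.41, -1.51, -0.87 and -1.57. The list of early response genes had medians of 0.83 in KO esiCT (0.47 without OXPT replicate 3), 0.68 in KO esiHDAC4, -0.63 in KO #11 and 0.09 in WT. CCN1 had 2.98, 2.84, -0.49 and 2.50. JUN had 1.44, 1.91, -1.94 and 0.60. Their unadjusted p for KO esiCT minus KO #11 was 8.42e-05 and 3.80e-04, and adjusted over all genes 0.109 and 0.224.

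Differences between the responses were tested as interactions over the same 12356 genes. With edgeR none was called for KO esiCT minus WT (0.0%), minus KO esiHDAC4 (0.0%) or minus KO #11 (0.0%), where 201, 19 and 863 genes had an unadjusted p under 0.05. DESeq2 called 0, 0 and 36. With the replicate block edgeR called 15 for KO #11, 11 higher and 4 lower in KO esiCT, among them JUN and CCN2 (higher) and RPS6KA2 and GNG7 (lower). For WT and KO esiHDAC4 no gene was called with the block. These results do not show that the responses were alike. In the plot of the 4 responses CDKN1A and FAS are above 0 and KCNQ1 is below 0 in all arms, while JUN and CCN1 are below 0 in KO #11 only.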

How the data were processed

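Polyadenylated RNA of HCT-116 cells was sequenced, and the authors deposited, for each library, whole-number read counts per gene without normalization, in columns without strand and for each strand. The submitters' processing notes name Trimmomatic 0.39, STAR 2.7.11a and hg38. The unstranded counts were used, because the strand columns had nearly equal totals (ratio 1.01 to 1.02 in these 6 libraries). Identifiers were matched to a GRCh38 annotation for 62639 of 62757 genes. Reads left unassigned as lying outside genes were 3.70% to 5.79% and as ambiguous 10.9% to 11.9%, and these stayed out of library sizes.

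All 24 libraries of 8 groups were fitted together with edgeR 4.0.16 (quasi-likelihood F-test, TMM scaling, R 4.3.3), on genes that averaged 64 or more raw counts in 1 or more groups. A gene was called when its p, adjusted by the Benjamini-Hochberg method, was under 0.05 and it changed more than 1.5-fold. Standard errors are approximate, and log2 fold changes carry a small prior count. CPM values are counts relative to the TMM-scaled library size. 12 WT libraries whose entries give opposite treatments were left out. Deviations from the group means of same-numbered OXPT and untreated libraries correlated at r = 0.33, 0.61 and 0.59 across genes. Between OXPT 1 and untreated 2 r was 0.32, and between OXPT 2 and untreated 1 it was 0.26. Where 1 of the libraries was number 3 and the other was not, r was -0.59 to -0.35. Deviations cancel out within each group, so these negative values follow in part from the positive r of pair 3. They are not separate evidence that number 3 stands apart. OXPT 1 correlated about as much with untreated 2 as with untreated 1. A fit with the number as a block was run as an alternative. The other alternatives were DESeq2 1.42.0, RLE scaling, other count minimums, the reverse-strand counts, only the groups compared, and each library left out in turn. The fit without both libraries numbered 3 was added after the data were seen. The paper gives at least 3 independent experiments as the general basis of its figures. No source says of these RNA-seq replicates that they were separate cultures. The p-values therefore measure the spread between these libraries, which may be technical, and intervals from counts would cover counting error only. The fit was tested on simulated data. Named genes were the 12 highest and 12 lowest called protein-coding genes with separate groups and a mean of at least 64 counts in the higher one, up to 3 called members of each of 35 gene lists in each direction, and a fixed list. Outside that rule, and chosen after their values were seen, are BTG2, PPM1D, SESN1, TP53INP1, SFN, GADD45A, SESN2, CCNG1, ATM, ATR, CHEK2, CENPA, CCNB2, FASN, SREBF2, SORCS2, PURPL and RUNX1. Some genes of the rule are not reported here. The comparison, the lists and the rule were chosen with earlier results of these data known. Exon lengths and spans come from the annotation, and promoters from RefSeq (GRCh38.p14).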

Additional observations from a re-analysis of the deposited data

How the results depend on the processing

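The number of genes called with OXPT in KO esiCT was 1398, and ran from 779 to 1552 when each library was left out in turn. It was 907 with at least 64 counts in every group, where 10405 genes were tested, 553 with only the groups compared, where fewer libraries set the spread, and 711 without both libraries numbered 3. The other alternatives gave 1202 to 1946, the highest with the replicate block (1946, 1058 higher and 888 lower). Higher genes made up 55.1% of the calls. This share ran from 45.6% to 61.7% with each library left out, being 45.6% without untreated replicate 1 or 2 and 49.1% without OXPT replicate 3, and was 45.2% with only the groups compared and the replicate block. The cause was not tested.

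Of the 93 named calls, 59 held without each library in turn, and the block lost 0 of them, added ERCC1, JUN and PMAIP1, and changed no other call among the named genes. EME1 had a log2 fold change of 0.16 with the reverse-strand counts. BAK1, RAD51C, ZRANB3, MAX, MNT, POLR1C, SDHA, SLC2A3 and JAG2 also lost their calls with these counts. With only the groups compared 23 named calls were lost and 1 was gained, and 32 were lost without both libraries numbered 3. When 1 library was left out, the log2 fold change of RNF43 ranged over -0.62 to 0.0067, that of HDAC7 -0.18 to 0.28, that of CCNE1 -0.31 to 0.14 and that of NR4A2 -0.077 to 0.65, none of them called. The count of interaction genes for KO esiCT minus WT was 24 without a count filter. For KO esiCT minus KO #11 it was 36 with DESeq2, 65 without a filter, 15 with the replicate block, 20 with only the groups compared, 11 with these groups and the block, and 0 to 2 with 1 library left out. For KO esiCT minus KO esiHDAC4 it was 0 throughout. Genes over 200 kb called lower numbered 198, and 148 to 174 with 1 library left out, 83 (of 533) when every group had to hold 64 counts and 99 (of 719) with only the groups compared. OXPT replicate 3, with 10725966 counts, limits the precision of low genes, and with 3 libraries a group a call near the threshold often turned on 1 of them.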

Other observations

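In the 553 promoters of genes called higher that the RefSeq table holds, 6.51% had the AP-1 motif TGACTCA on either strand, against 1.45% of 484 promoters of genes called lower and 2.95% of the 9475 promoters of tested genes. Other motifs were counted as well and differed less between genes called higher and all tested. The p53 motif was in 90.8%, 87.6% and 89.5% of these promoters in the same order, and CCAAT in 35.1%, 39.3% and 36.7%. These shares describe windows of 300 bases and say nothing of binding.

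ATF4 targets, which include amino acid synthesis and transport genes, had a median log2 fold change of -0.11 in KO esiCT, 0.38 in KO esiHDAC4, -1.38 in KO #11 and -0.82 in WT. The first of these was 0.01 without OXPT replicate 2 and -0.26 without untreated replicate 3, the ends of its range when 1 library was left out. NF-κB targets had medians of 0.77, 0.96, 0.11 and -0.23 in the same order. In KO esiCT 2 of 22 and 1 of 15 of these genes were called, and no difference between arms was tested for a list. Processed pseudogenes had 9 of 375 called higher and 13 lower, with a median of 0.25. This class was not computed without OXPT replicate 3, and its medians were 0.11 in KO esiHDAC4, 0.01 in KO #11 and -0.09 in WT.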
